A study of Mus musculus with 5 samples.

Results

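The 45 genes described here act in mitosis, from the kinase switch that starts it to the cut between the daughter cells. They were taken by name from the reference annotation of the files, 45 of 55498 reference genes, by a rule that uses no measured value. The list was drawn up with earlier results of these data known. All 45 are protein-coding and all had a mean level of at least 1 TPM (a share of the library's transcripts, corrected for transcript length), so all were among the 13881 genes tested. The cells were GL261, an established mouse glioma line, and RNA was taken 24 h after sodium propionate (2 libraries, replicates 2 and 3) or sodium chloride (3 libraries, replicates 1, 2 and 3) was added, each at a labelled 1 uM. Sodium chloride serves as the control salt for propionate, a short-chain fatty acid that bacteria of the gut produce, and neither group is labelled with another agent or a genetic change. Propionate replicate 1 was not analysed here. Separate cultures are not named in the labels, so p-values measure only the spread between these libraries, and that spread may be technical.

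Cells enter mitosis when cyclin-dependent kinase 1 (CDK1), bound to cyclin B, is freed of inhibiting phosphates by CDC25 phosphatases. Spindle microtubules then attach to kinetochores built on centromeres, a checkpoint holds back the anaphase-promoting complex until every chromosome is attached, and CDC20 then switches that ubiquitin ligase on, so that securin and cyclin B are destroyed and the chromosomes part. Most of these genes are transcribed late in the cell cycle under the control of the MuvB complex with B-MYB and FOXM1, and their messages together are a common readout of how many cells in a culture are dividing.

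The library facts that bear on these genes are few. Aligned bases over all transcripts came to 6.53 to 7.03 Gb, and a gene at 1 TPM had a mean coverage of 4.73 to 4.99 per base. The 45 genes stood between 9.02 and 204 TPM. Of 8 glial markers Vim, S100b, Nes, Sox2, Fabp7 and Gfap were above 1 TPM in every library, while Olig2 and Slc1a3 were below 1 TPM in all of them. In some of these the groups did not overlap, as in 19.7% of all tested genes with propionate below and 14.8% with propionate above. S100b was at 194 to 208 TPM in chloride and 147 to 167 TPM in propionate libraries. Fabp7 was at 12.9 to 14.4 and 21.5 to 26.0 TPM, and Gfap at 3.22 to 5.2 and 5.24 to 6.59 TPM. Olig2 was at 0.357 to 0.68 and 0.855 to 0.904 TPM, while Vim, Nes, Sox2 and Slc1a3 overlapped. The 8 summed to 5790 to 7400 TPM and 6380 to 7180 TPM. Leukocyte markers Ptprc, Itgam, Aif1, Csf1r and Tyrobp stayed under 1 TPM in each library. Cd68 was at 6.22 to 7.59 TPM in chloride and 10.1 to 12.1 TPM in propionate libraries, and the summed leukocyte list at 6.54 to 7.94 and 10.4 to 12.2 TPM. The part of these markers in the values below was not tested. The 4 endothelial and 3 fibroblast markers were under 1 TPM in all libraries, as were the neuronal markers except Tubb3, at 177 to 191 and 192 to 228 TPM.

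Promoter sequences are shown first, because a short shared element is what many of these genes have in common beside their role. The element is the cell cycle genes homology region (CHR), read here as TTTGAA or TTCGAA, to which MuvB binds, and it often lies downstream of CCAAT boxes, to which NF-Y binds. RefSeq (GRCm38.p6) gave promoter windows of 250 bases before to 50 bases after the start for 39 of the 45 genes, in 42 windows. Ccna2, Foxm1, Aurkb, Tpx2, Cdc25c and Kif20a had no entry. The 120 bases before the start are given for 4 genes that carry both elements there, among them the member with the largest decrease (Cdc20), and for Pttg1, the member with the largest increase, which carries neither. Each is written 5′ to 3′ on the gene's strand in lower case, with matches on either strand in capitals (the antisense forms are TTCAAA and ATTGG, and TTCGAA reads the same on both strands).
Cdc20, chr4:118437344-118437463, minus strand: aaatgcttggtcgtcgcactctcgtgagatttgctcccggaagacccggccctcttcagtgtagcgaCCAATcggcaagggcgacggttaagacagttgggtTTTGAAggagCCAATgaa
Top2a, chr11:99024190-99024309, minus strand: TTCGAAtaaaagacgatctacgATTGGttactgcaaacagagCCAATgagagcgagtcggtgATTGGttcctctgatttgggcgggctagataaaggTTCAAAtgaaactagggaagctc
Cdk1, chr10:69352913-69353032, minus strand: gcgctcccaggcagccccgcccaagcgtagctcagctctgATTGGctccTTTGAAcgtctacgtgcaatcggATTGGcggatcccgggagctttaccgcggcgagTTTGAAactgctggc
Kif11, chr19:37376262-37376381, plus strand: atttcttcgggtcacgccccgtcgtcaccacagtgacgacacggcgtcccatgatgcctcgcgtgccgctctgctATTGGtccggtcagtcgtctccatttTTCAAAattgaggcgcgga
Pttg1, chr11:43425982-43426101, minus strand: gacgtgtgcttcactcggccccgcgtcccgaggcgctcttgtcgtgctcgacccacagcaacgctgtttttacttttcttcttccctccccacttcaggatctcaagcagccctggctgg

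TTTGAA or TTCGAA was found on either strand in 78.6% of the 42 member windows, against 19.2% of all 32851 RefSeq windows of the same length. CCAAT was found in 78.6% of the member windows and in 37.4% of all windows, and both kinds together in 69.0% and 7.52%. The CHR match nearest the start began 18 bases before it in Cdc20, 23 in Top2a, 15 in Cdk1 and 19 in Kif11, and in Ube2c, whose sequence is not printed, 29 bases before it. In Hjurp and Plk1 the CHR match lay after the start, beginning at base 20 and base 31 of the transcript. Starts are those of RefSeq, and the stretch shown for Pttg1 lies inside the longer span that Ensembl gives that gene. Bases before the Ensembl start of Pttg1 were thus not searched. Of the other members higher in both propionate libraries, Cdc25b, Ttk, Top2a and Cenpf carry both elements in their windows, and Nusap1 carries neither. After propionate the median log2 change was -0.079 for the 30 genes with TTTGAA or TTCGAA, 20 of which lay below 0, and -0.075 for the 9 without, 6 of which lay below 0. These matches describe the letters and say nothing of binding in these cells.

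None of the 45 genes passed the threshold in either direction after propionate (limma, Benjamini-Hochberg adjusted p under 0.05 over all 13881 genes), where 1.82% of all tested genes were called, 1.31% higher and 0.504% lower. Of the members, 3 (6.67%) were lower and 0 higher at a limma p under 0.05 without adjustment, against 8.9% and 7.93% of all genes. With limma's voom on aligned bases 2 members (4.44%) were called lower and 0 higher, where 2.6% of all genes were called lower and 5.09% higher. The median log2 change of the 45 genes was -0.08 (quartiles -0.13 and 0.03), with 31 below 0, beside a median of -0.03 over all tested genes, 55.5% of which were below 0. Each change is the propionate mean less the chloride mean of log2(TPM + 1), a scale that understates the change of low genes, and is given with its standard error or its 95% interval. The extremes were Cdc20 at -0.40 and Pttg1 at 0.25. In 43 of the 45 genes the 95% interval of the fold change, taken gene by gene, lay within 1.5-fold in either direction, and the 2 exceptions were Hjurp and Cdc20. In bulk RNA fewer cells in mitosis and less message per mitotic cell cannot be told apart.

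**Figure D1:**
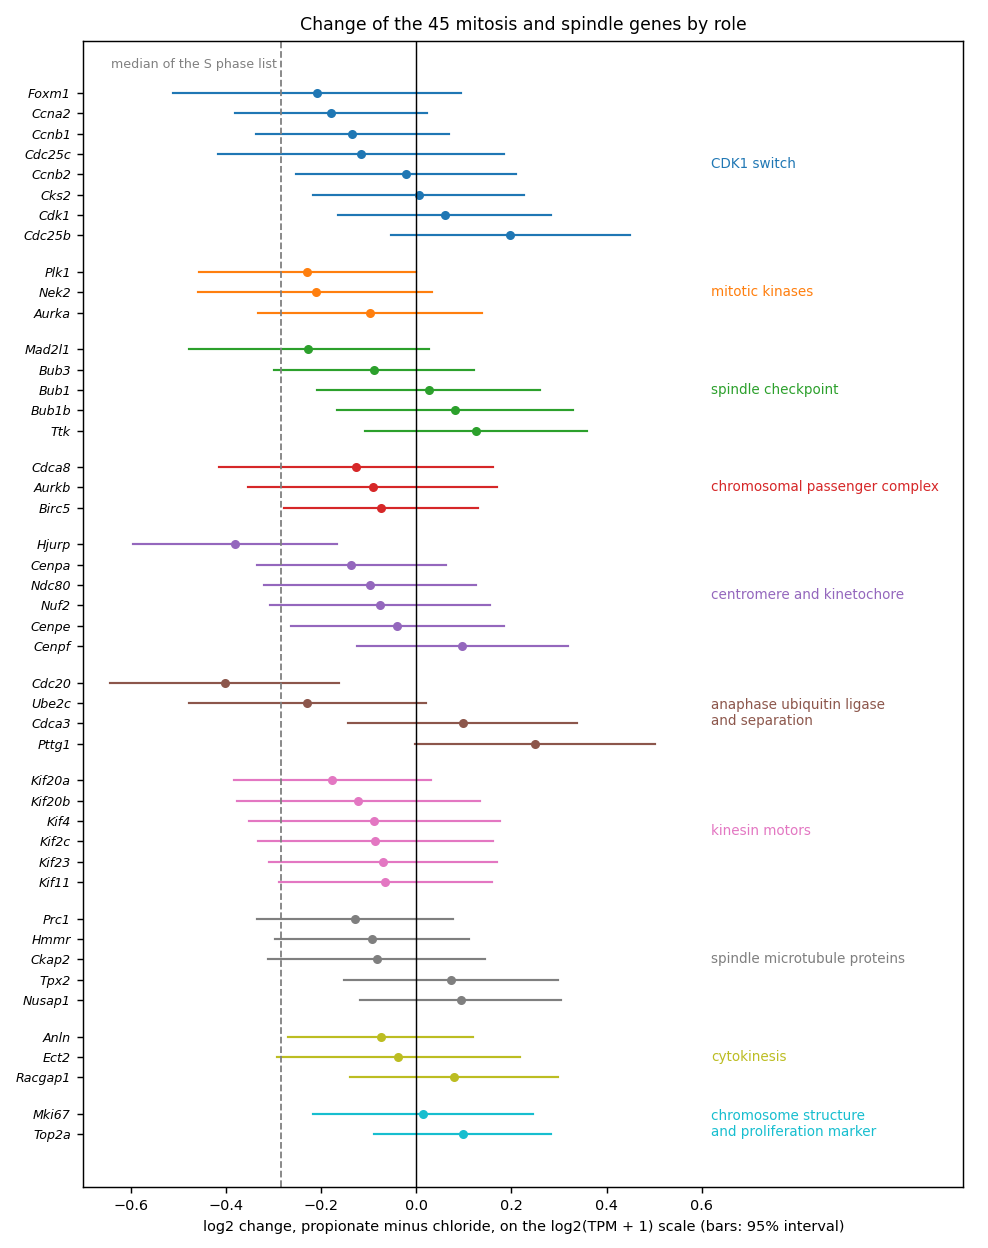
Log2 change (propionate minus chloride, log2(TPM + 1) scale, horizontal axis) of each of the 45 genes, grouped by role, with bars for the 95% interval and a dashed line at the median of the S phase genes (-0.28). All bars but those of Hjurp, Cdc20 and Plk1 cross 0, and only Hjurp and Cdc20 lie to the left of the dashed line.

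Cdc20 and Hjurp stood furthest from the rest. Cdc20 (ENSMUSG00000006398, chromosome 4, 118432901 to 118437352, minus strand, mm10), the activator of the anaphase-promoting complex and the target of the spindle checkpoint, stood at 166, 164 and 164 TPM after chloride and at 111 and 138 TPM in propionate replicates 2 and 3. Both propionate libraries lay below all chloride libraries, which were within 3 TPM of each other, and the propionate libraries differed from each other by more than that. The change was -0.40 ± 0.11 (0.756-fold, 95% interval 0.640 to 0.894; limma adjusted p = 0.103). Its main reference transcript held 98.6% to 99.4% of its level in every library and no assembled isoform was counted in it, so its value did not depend on how isoforms were summed. It passed when limma was run on TPM rescaled to protein-coding genes (adjusted p = 0.0295), on values scaled by median of ratios (adjusted p = 0.0405) or through voom (adjusted p = 0.0180), and over the 14 alternative settings its adjusted p ran from 0.0180 to 0.274. Without propionate replicate 2 its change was -0.25 and without replicate 3 it was -0.56. Elovl1 on the other strand overlaps Cdc20 by 53 bases, and Elovl1 stood at 27.0 ± 3.27 and 23.5 ± 5.03 TPM (adjusted p = 0.550).

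Hjurp (ENSMUSG00000044783, chromosome 1, 88262471 to 88277633, minus strand), the chaperone that places the centromeric histone CENP-A, was at 70.1, 79.6 and 71.9 TPM in chloride and at 56.9 and 55.9 TPM in propionate libraries. The groups did not overlap, and the propionate libraries were within about 1 TPM of each other. The change was -0.38 ± 0.09 (0.768-fold, 95% interval 0.662 to 0.891; limma adjusted p = 0.0898). It passed with voom alone (-0.27, adjusted p = 0.0384), and its adjusted p ran from 0.0384 to 0.773 over the 14 settings. The highest of these came from reference transcripts only (-0.29), because isoforms assembled by the authors from the reads held 29.5%, 9.07% and 50.6% of Hjurp in the chloride libraries and 7.28% and 43.0% in the propionate libraries. The share thus varied widely within each group.

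**Figure D2:**
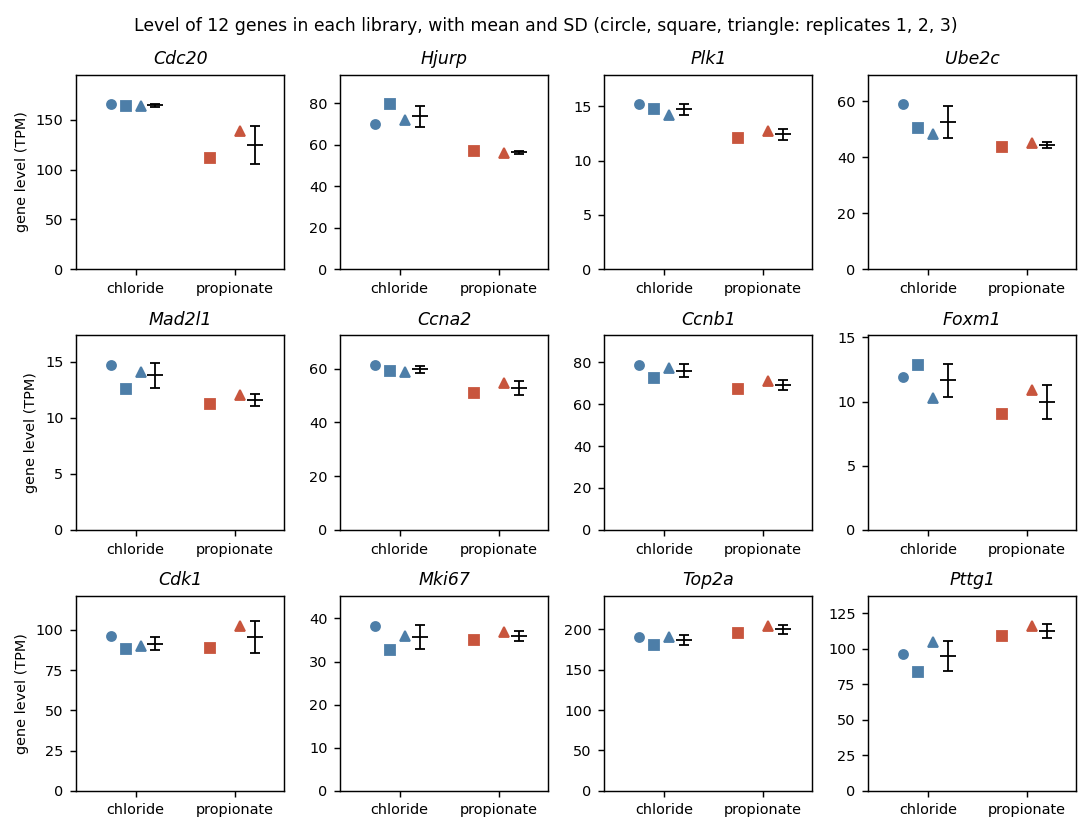
Gene level in TPM (vertical axis, from 0) of 12 genes in each chloride (blue) and propionate (red) library, where the marker shape gives the replicate and the black bar the group mean with its SD. Cdc20 and Hjurp show the clearest gap between groups, Cdk1 and Mki67 overlap, and Top2a and Pttg1 lie higher in both propionate libraries.

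The genes of the CDK1 switch lay on both sides of 0, with 5 of 8 below and a median change of -0.07. Cdk1 itself, the kinase that drives entry into mitosis, was at 96.1, 88.1 and 90.1 TPM in chloride and at 88.7 and 102 TPM in propionate libraries, so the groups overlapped (1.04-fold, 95% interval 0.893 to 1.22; adjusted p = 0.816). Its cyclin partner Ccnb1 was at 78.7, 72.3 and 77.1 TPM and at 67.4 and 70.9 TPM, with both propionate libraries lower (-0.13 ± 0.09, adjusted p = 0.484). Ccna2, the cyclin A that acts from S phase into early mitosis, was at 61.3, 59.2 and 58.9 TPM and at 50.8 and 54.6 TPM, again with no overlap (-0.18 ± 0.09, adjusted p = 0.356). Exosc9 on the other strand overlaps it by 863 bases and had a change of -0.205 (adjusted p = 0.328). Unspliced reads of the overlap cannot be told apart without a strand option.

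Cdc25b, the phosphatase that starts CDK1 activation, went the other way, at 20.8, 19.9 and 18.3 TPM in chloride and 21.1 and 24.4 TPM in propionate libraries. Both propionate libraries were above the chloride ones, the lower of them by a small margin (0.20 ± 0.11, adjusted p = 0.406). Its relative Cdc25c overlapped between groups (15.7 ± 2.28 and 14.3 ± 0.839 TPM). Foxm1, the transcription factor behind much of this programme, was at 11.9, 12.8 and 10.3 TPM and at 9.02 and 10.9 TPM, which overlap (-0.21 ± 0.13, adjusted p = 0.467). Ccnb2, the second B cyclin, was at 69.9 ± 1.43 and 69.2 ± 8.71 TPM. Cks2, a small subunit that binds CDK1, was at 64.8 ± 4.78 and 65.0 ± 2.44 TPM. Their changes of -0.02 and 0.005 were among the smallest of the 45 genes.

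The 3 genes grouped here as mitotic kinases, Plk1, Nek2 and Aurka, lay below 0, and none passed. Kinase genes described under other roles went both ways. Cdk1 (0.06), Ttk (0.13), Bub1 (0.03) and Bub1b (0.08) lay above 0, and Aurkb (-0.09) lay below. Plk1, the polo-like kinase needed for mitotic entry, centrosome maturation and cytokinesis (chromosome 7, 122159439 to 122169873, plus strand), was at 15.2, 14.8 and 14.2 TPM in chloride and at 12.1 and 12.8 TPM in propionate libraries. The groups did not overlap, and the change was -0.23 ± 0.10 (limma adjusted p = 0.294). Nek2, a kinase that separates centrosomes, was at 21.4, 23.0 and 23.9 TPM and at 18.1 and 20.9 TPM, also without overlap (-0.21 ± 0.11, adjusted p = 0.369). Aurka, which acts at spindle poles, overlapped (50.1 ± 2.48 and 46.9 ± 5.03 TPM, adjusted p = 0.691).

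The spindle checkpoint genes split, with 3 of 5 above 0 and a median of 0.03. Mad2l1, whose product captures CDC20 in the checkpoint complex, was at 14.7, 12.6 and 14.1 TPM in chloride and at 11.2 and 12 TPM in propionate libraries, all lower (-0.23 ± 0.11, adjusted p = 0.351). Ttk, the kinase that starts checkpoint signalling, was at 9.66, 9.99 and 9.49 TPM and at 10.6 and 10.8 TPM, all higher (0.13 ± 0.10, adjusted p = 0.586). The difference between them was not tested. Bub1, Bub1b and Bub3, the scaffold kinase, the BUBR1 subunit and their partner, overlapped between groups, with changes of 0.03, 0.08 and -0.09.

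The chromosomal passenger complex corrects wrong attachments between kinetochores and microtubules. Its kinase gene Aurkb, survivin gene Birc5 and borealin gene Cdca8 all overlapped between groups. Cdca8 was at 28.7 ± 2.04 and 26.4 ± 4.57 TPM (-0.13 ± 0.13, adjusted p = 0.670) and Birc5 at 54.6 ± 1.04 and 51.8 ± 2.96 TPM (-0.08 ± 0.09, adjusted p = 0.731). In each of the 3, propionate replicate 2 was below all chloride libraries and propionate replicate 3 was among them.

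At the centromere, 5 of 6 genes lay below 0 with a median of -0.09. Beside Hjurp, its client histone gene Cenpa was at 69.0, 69.1 and 68.8 TPM in chloride and at 60.1 and 65.2 TPM in propionate libraries. Both were lower, with a change of -0.14 ± 0.09 (adjusted p = 0.470) that was 0.04 with reference transcripts only. Cenpf, a large kinetochore protein gene, was at 17.4, 16.2 and 16.4 TPM and at 18.1 and 17.7 TPM, both higher (0.10 ± 0.10, adjusted p = 0.673). Cenpe, a kinetochore motor, and Ndc80 and Nuf2, which form the microtubule-binding end of the NDC80 complex, overlapped, with changes of -0.04, -0.10 and -0.08.

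Among genes of anaphase, the ubiquitin-conjugating enzyme gene Ube2c (chromosome 2, 164769898 to 164778822), which works with the anaphase-promoting complex, was at 58.9, 50.3 and 48.2 TPM in chloride and at 43.7 and 45.2 TPM in propionate libraries. Both were lower, by less than the range of the chloride libraries (-0.23 ± 0.11, adjusted p = 0.337). Pttg1 (chromosome 11, 43420250 to 43426251, minus strand) encodes securin, which holds separase inactive until that complex destroys it. It was at 96.2, 84.0 and 105 TPM and at 109 and 116 TPM, the largest positive change of the 45 genes (0.25 ± 0.11, 1.19-fold, 95% interval 0.998 to 1.42; adjusted p = 0.302). Cdc20 and Ube2c lay lower and their substrate gene Pttg1 higher in both propionate libraries, and no one of the 3 passed. Cdca3, which promotes the destruction of WEE1, was at 37.0 ± 1.64 and 39.8 ± 4.63 TPM. Its sign turned to -0.81 with reference transcripts only, where assembled isoforms held 25.6% to 52.0% of its level in chloride and 70.5% and 68.1% in propionate libraries.

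The 6 kinesin motor genes were all below 0, between -0.18 and -0.07, and 1 of them did not overlap. This was Kif20a, a motor of the central spindle (chromosome 18, 34624613 to 34633277), at 72.3, 67.3 and 67.2 TPM in chloride and at 58.7 and 63.1 TPM in propionate libraries (-0.18 ± 0.09, adjusted p = 0.371). It shares 2327 bases with Cdc23 on the other strand, which changed by -0.15 (adjusted p = 0.498). Kif20b was at 10.9 ± 0.914 and 9.88 ± 0.114 TPM (-0.12 ± 0.11, adjusted p = 0.638). Kif11, the motor that pushes spindle poles apart, Kif23 of the centralspindlin complex, the microtubule-shortening Kif2c and the chromosome-bound Kif4 had changes of -0.065, -0.07, -0.09 and -0.09.

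Of the spindle microtubule proteins, the crosslinker gene Prc1 was at 85.0, 80.5 and 85.8 TPM in chloride and at 72.9 and 80.2 TPM in propionate libraries, the higher of which lay just under the lowest chloride library (-0.13 ± 0.09, adjusted p = 0.516). Rccd1 on the other strand overlaps the span of Prc1 by 21810 bases. It stood at 4.08 ± 0.682 and 3.20 ± 0.456 TPM (-0.27, adjusted p = 0.443). Hmmr was at 51.8, 50.6 and 54.1 TPM and at 47.5 and 50.1 TPM (-0.09 ± 0.09, adjusted p = 0.652). Nusap1, which bundles microtubules near chromatin, was at 34.6, 33.6 and 34.5 TPM and at 35.0 and 38.3 TPM, both higher (0.09 ± 0.09, adjusted p = 0.666). Ckap2 and the spindle assembly factor gene Tpx2 overlapped, with changes of -0.08 and 0.07. The cytokinesis genes stayed within 0.08 of 0. Anln, an actin-binding scaffold of the cleavage furrow, was at 72.0 ± 1.67 and 68.3 ± 2.26 TPM (adjusted p = 0.718), Racgap1 of centralspindlin at 47.5 ± 1.46 and 50.3 ± 4.40 TPM (adjusted p = 0.736), and the RhoA activator gene Ect2 at 20.6 ± 2.06 and 20.0 ± 0.767 TPM (adjusted p = 0.906).

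The proliferation markers Mki67 and Top2a did not pass. Mki67, which encodes Ki-67, was at 38.3, 32.8 and 35.8 TPM in chloride and at 35.0 and 36.8 TPM in propionate libraries, with the propionate values inside the chloride range (1.01-fold, 95% interval 0.860 to 1.19; adjusted p = 0.964). Top2a, the topoisomerase that untangles sister chromatids (chromosome 11, 98992943 to 99024189, minus strand), was the most abundant member, at 191, 180 and 190 TPM and at 196 and 204 TPM. Both propionate libraries were higher, by 1.07-fold (95% interval 0.941 to 1.22; adjusted p = 0.599). This direction rested on how isoforms were counted: assembled isoforms held 50.3% to 64.9% of Top2a in chloride and 57.4% and 70.0% in propionate libraries, and its change was -0.17 when reference transcripts alone were summed.

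In 13 of the 45 genes both propionate libraries lay below all chloride libraries, which is 28.9% of the members, where 19.7% of all tested genes did. In 6 genes (13.3%, against 14.8% of all genes) both lay above, and in 26 the groups overlapped. The 13 are Hjurp, Cdc20, Plk1, Ube2c, Mad2l1, Ccna2, Nek2, Kif20a, Cenpa, Ccnb1, Prc1, Hmmr and Anln, and the 6 are Pttg1, Cdc25b, Ttk, Top2a, Nusap1 and Cenpf. With reference transcripts only, 9 members lay below and 6 above, and the share of all genes in that setting is not given here. Hjurp, Mad2l1, Cenpa, Prc1 and Anln then overlapped between groups, while Cdca3 lay below. Top2a and Cenpf also overlapped in that setting, while Racgap1 and Cks2 lay above. The propionate libraries were not alike. Propionate replicate 2 was below replicate 3 in 39 of 45 genes, and below all chloride libraries in 27, where replicate 3 was in 14. For these counts no share over all genes is given, so they cannot be told apart from a shift of the whole library. Against the chloride mean the median of the 45 genes was -0.15 in replicate 2 and -0.001 in replicate 3, beside -0.08 and 0.03 over all tested genes. Leaving out propionate replicate 2 gave the members a median change of -0.001, and leaving out replicate 3 gave -0.15. Set against the median of all genes of the same library, the members stood at -0.07 in replicate 2 and -0.03 in replicate 3, and at -0.03 to 0.04 in the chloride libraries.

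**Figure D3:**
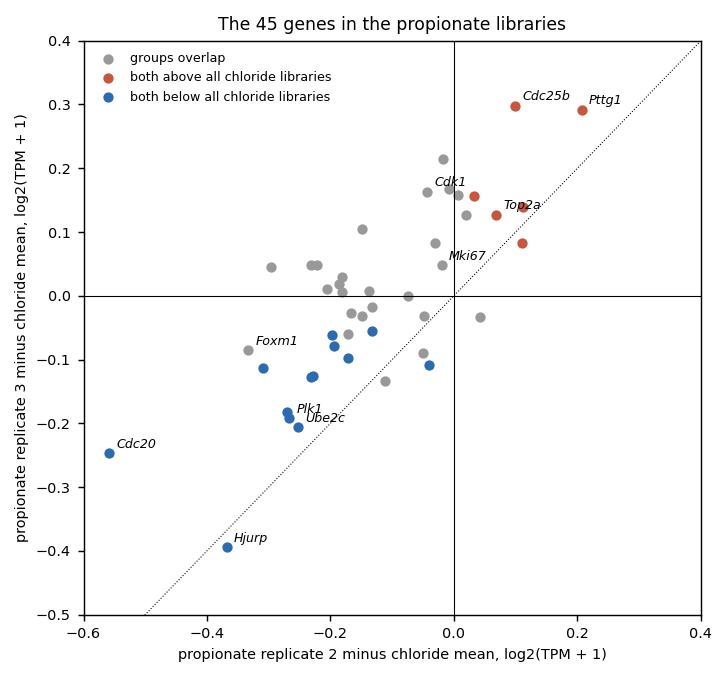
Difference from the chloride mean on the log2(TPM + 1) scale in propionate replicate 2 (horizontal axis) and replicate 3 (vertical axis) for each of the 45 genes, with the dotted line at equal values. Of the points, 39 lie above the dotted line, and Hjurp and Cdc20 are the genes furthest below 0 in both libraries.

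The rest of the mitotic machinery was described through lists that the rule did not use. Of 145 further genes of CDK1 control, MuvB, condensin, cohesin, the anaphase-promoting complex, kinetochores, spindle, centrosomes and cytokinesis, 144 were tested and none passed in either direction with limma. Without adjustment 21 (14.6%) were lower and 1 (0.694%) higher at a limma p under 0.05, beside 8.9% and 7.93% of all genes. Voom called 3 lower (2.08%), near its 2.6% of all genes. The median was -0.10, with 114 of 144 (79.2%) below 0, beside -0.03 and 55.5% over all genes. In 32.6% of them both propionate libraries lay below all chloride libraries and in 3.47% above, beside 19.7% and 14.8% of all tested genes. Kinetochore and checkpoint genes had 30 of 33 below 0 (median -0.13). The lowest p in that list was that of Cenpm, a subunit of the inner kinetochore, at 11.9 ± 1.37 and 7.89 ± 0.285 TPM (-0.53 ± 0.12, adjusted p = 0.0768), followed by Pmf1, of the MIS12 complex, at 13.7 ± 0.254 and 10.4 ± 0.0978 TPM (adjusted p = 0.106).

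Cohesin genes had 10 of 15 below 0 (median -0.08), with the subunit gene Stag1 at 15.03 ± 0.613 and 11.1 ± 0.0288 TPM (adjusted p = 0.0926) and Pds5a at 35.6 ± 1.36 and 29.6 ± 1.08 TPM (adjusted p = 0.213). All 8 condensin genes were below 0 (median -0.15), with Ncapd3 at 18.9 ± 1.57 and 15.1 ± 0.0918 TPM (adjusted p = 0.204) and Smc2 at 56.3 ± 3.48 and 48.3 ± 2.53 TPM (adjusted p = 0.309). Ncapd2, named after its values were seen, was at 742 to 882 TPM in chloride, 886 TPM in propionate replicate 2 and 51.0 TPM in propionate replicate 3, so its change of -1.91 rests on 1 library. All 10 genes of the MuvB and DREAM list were below 0 (median -0.11), with Rbl1 at 13.0 ± 0.546 and 11.3 ± 1.22 TPM (adjusted p = 0.432) and Lin9 at 9.61 ± 0.167 and 8.49 ± 1.25 TPM (adjusted p = 0.528).

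Spindle proteins had 17 of 23 below 0 (median -0.08), with the microtubule plus-end gene Clasp1 at 23.4 ± 3.21 and 15.9 ± 0.618 TPM (adjusted p = 0.0898) and the kinesin gene Kif15 at 11.5 ± 0.733 and 8.48 ± 1.16 TPM (adjusted p = 0.146). Centrosome genes had 11 of 13 below 0 (median -0.12), with the centriole gene Sass6 at 4.89 ± 0.406 and 3.57 ± 0.302 TPM (adjusted p = 0.215) and the gamma-tubulin complex gene Tubgcp3 at 15.1 ± 1.33 and 12.1 ± 0.844 TPM (adjusted p = 0.238). Subunits and partners of the anaphase-promoting complex, the ligase that CDC20 activates, had 14 of 17 below 0 (median -0.06), with Anapc1 at 41.6 ± 0.771 and 36.5 ± 1.03 TPM (adjusted p = 0.336) and Anapc5 at 144.6 ± 6.995 and 130.6 ± 12.2 TPM (adjusted p = 0.476). The CDK1 control list had 5 of 9 below 0 (median -0.06), with Arpp19, an inhibitor of the phosphatase that opposes CDK1, at 26.4 ± 0.837 and 31.6 ± 3.73 TPM (adjusted p = 0.284) and the PLK1 activator gene Bora at 8.10 ± 0.726 and 6.59 ± 0.822 TPM (adjusted p = 0.349). Of the late cell cycle list 9 of 16 were below 0 (median -0.10), with Troap at 6.77 ± 0.758 and 5.10 ± 0.514 TPM (adjusted p = 0.238) and the kinase gene Pbk at 43.4 ± 1.84 and 37.2 ± 2.70 TPM (adjusted p = 0.301).

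Genes of DNA replication, which are transcribed before the mitotic genes in the same cycle, lay lower than the mitotic genes. Of 36 S phase genes 34 (94.4%) were below 0 with a median of -0.28, beside 55.5% and -0.03 over all tested genes. Both propionate libraries lay below all chloride libraries in 27 of the 36, where 19.7% of all tested genes did. Mcm5 fell from 58.9 ± 2.15 to 39.0 ± 3.41 TPM (limma adjusted p = 0.0274) and Mcm4 from 47.5 ± 2.71 to 33.1 ± 1.66 TPM (adjusted p = 0.0431), both subunits of the replicative helicase. The 2 S phase genes above 0 did not pass, the higher of them at 0.14. Neither call held with any 1 of the 5 libraries left out, where 0 S phase genes passed. Of the 45 mitotic genes 2, Cdc20 and Hjurp, lay at or below the S phase median, and 28 of the 36 S phase genes lay at or below the median of the mitotic genes. Set against all genes of the same library, the S phase median was -0.27 in propionate replicate 2 and -0.28 in replicate 3, where the mitotic median was -0.07 and -0.03. The difference between the lists was not tested, and both were compared with the same 3 chloride libraries. Both lists were also chosen with earlier results of these data known.

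**Figure D4:**
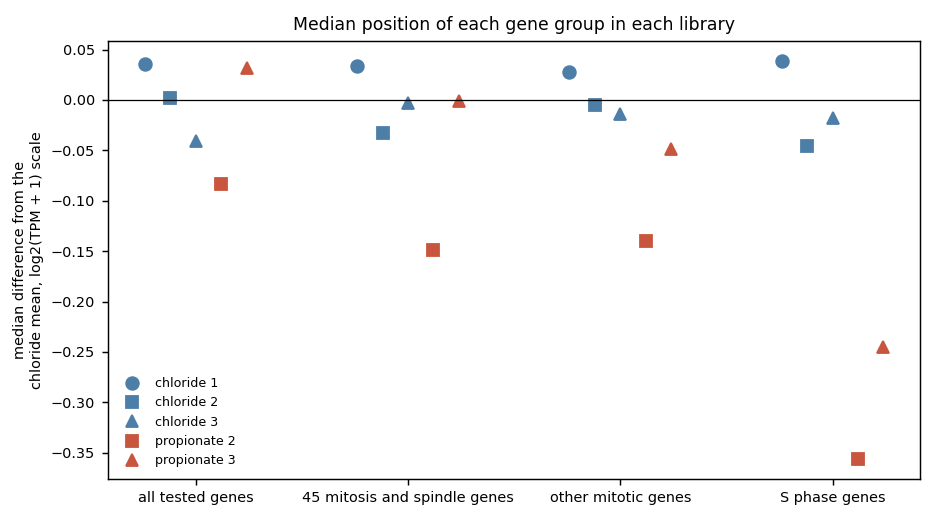
Median difference from the chloride mean on the log2(TPM + 1) scale (vertical axis) of 4 gene groups in each chloride (blue) and propionate (red) library, with the marker shape giving the replicate. The S phase genes are at -0.36 and -0.24 in the propionate libraries, the 45 mitosis and spindle genes at -0.15 and -0.001, and all tested genes at -0.08 and 0.03.

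Isoforms assembled by the authors from these reads were present in 26 of the 45 genes and held over 10% of the level in at least 1 library in 24 of them. In Kif23, Kif20b and Cdca3 the most abundant transcript was an assembled one. Kif23 was at 20.2 ± 1.57 and 19.2 ± 0.394 TPM, of which assembled isoforms held 53.3% to 68.8% in chloride and 64.8% and 72.9% in propionate libraries. The other 19 genes, Cdc20, Plk1, Ube2c and Pttg1 among them, had no assembled isoform, and their values were the same with reference transcripts only. For 12 members another expressed gene overlaps the locus, 11 of them on the other strand. Across the 45 genes the change did not follow the level, with a Pearson r of -0.05 and a Spearman rho of -0.03 between log2 chloride TPM and the change. These are given as a description over genes of the same 5 libraries.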

How the data were processed

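Total RNA of GL261 cells was extracted with an RNeasy Mini plus kit and made into TruSeq Stranded Total RNA (Gold) libraries, per the labels' protocols. Tools named in the submitters' processing notes are bcl2fastq, fastp, HISAT2 and StringTie, with the build mm10. Per the file headers, StringTie 2.1.1 estimated the deposited TPM, FPKM and coverage signal of each transcript on 1 merged annotation, with no strand option, so the files hold no read counts and unspliced antisense reads cannot be assigned. Each file lists 157895 transcripts, 15415 of them assembled. GENCODE M21 gave the gene of each reference transcript (99.81% of those found had the same start), and 12224 assembled transcripts were added to the gene of their locus and strand that they overlap most; 3191 transcripts had no gene. TPM is a share of the library, so a change in abundant RNA moves all other genes.

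Gene TPM (mean of at least 1, 13881 genes) was tested as log2(TPM + 1) with limma 3.58.1 in R 4.3.3 (trend, two-sided, group as the only term), Benjamini-Hochberg adjusted p under 0.05, and the fit was tested on simulated data. With 3 against 2 libraries an exact permutation test of 1 gene cannot pass, so none was used. Between libraries of a group, log2 differences had an SD of 0.321 to 0.340. Aligned bases are coverage times length; divided by 100 they served as estimated counts for voom. Alternatives were a pseudocount of 0.1, a minimum of 5 TPM or none, FPKM, scaling by median of ratios, TPM rescaled to protein-coding genes, voom, reference transcripts only, a replicate block and each library left out. The members, lists and motifs were chosen with earlier results of these data known. Values per library are given for members without overlap between groups (up to 18, in order of p) and for Top2a, Mki67, Cdk1, Ccnb1, Cdc20, Plk1 and Foxm1, and for up to 2 further genes of each role or list by smallest p, or those past the threshold. Figures were drawn with matplotlib 3.10.9.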

Additional observations from a re-analysis of the deposited data

How the results depend on the processing

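Over the 14 settings no mitosis or spindle gene was called higher, and the number called lower was 0 except with median-of-ratios scaling (1, Cdc20), TPM over protein-coding genes (1, Cdc20) and voom (2, Cdc20 and Hjurp). Median-of-ratios scaling put 10 members above all chloride libraries, and the share of all genes in that setting is not given here. Over all genes, the numbers higher and lower were 182 and 70 as reported, 5 and 6 with reference transcripts only, and 2 and 1 with no minimum. They were 371 and 157 with median-of-ratios scaling, 337 and 182 with TPM rescaled to protein-coding genes, and 707 and 361 when voom was used. FPKM gave 232 and 106, and a minimum of 5 TPM gave 175 and 101 of 9945 genes tested. Of the other mitotic genes 1 was lower with reference transcripts only, 3 with voom and 1 with the replicate block, and median-of-ratios scaling gave them a median of -0.074. The S phase genes called lower, 2 as reported, were 0 with reference transcripts only, no minimum or the replicate block. They were 4 with a minimum of 5 TPM, 5 with FPKM, 7 with median-of-ratios scaling and 7 with TPM over protein-coding genes. Voom called 12 of the 36 lower (33.3%), where it called 2.6% of all genes lower. The cause was not tested.

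With each library left out in turn, 8 to 124 genes were higher and 7 to 46 lower, and the median of all genes ran from -0.083 (without propionate replicate 3) to 0.032 (without propionate replicate 2). The members' median ran from -0.149 to -0.001 with the same libraries left out, and 13 to 27 members lay below and 6 to 13 above all chloride libraries. The other mitotic genes had 0 to 1 lower and a median of -0.140 to -0.049, and the S phase genes 0 lower and a median of -0.356 to -0.245.

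The sign held in all 14 settings for 25 of the 45 members. With reference transcripts only the change was -0.086 for Bub1, 0.056 for Ccnb2, -0.807 for Cdca3, 0.035 for Cenpa, 0.013 for Cenpe, 0.107 for Kif20b and -0.170 for Top2a, and with median-of-ratios scaling 0.002 for Ccnb2. With each library left out, the change ran from -0.205 to 0.010 for Aurka, -0.232 to 0.049 for Aurkb, -0.030 to 0.082 for Bub1, -0.149 to 0.105 for Ccnb2, -0.018 to 0.214 for Cdca3, -0.297 to 0.045 for Cdca8, -0.043 to 0.163 for Cdk1, -0.186 to 0.019 for Ckap2, -0.041 to 0.061 for Cks2, -0.088 to 0.038 for Ect2, -0.137 to 0.007 for Kif11, -0.222 to 0.049 for Kif2c, -0.182 to 0.006 for Kif4, -0.043 to 0.066 for Mki67, -0.182 to 0.030 for Nuf2 and -0.008 to 0.167 for Racgap1.

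The labels tie the replicate numbers to no shared culture or day, so the samples were not treated as paired. Deviations of same-numbered libraries correlated at -0.223 (number 2) and -0.196 (number 3). With 2 propionate libraries the deviations from their mean mirror each other. The correlations are therefore not independent and cannot show whether the numbers pair the samples. With the replicate number as a block, 264 genes were higher and 104 lower, the members' median was -0.065 with none called, and the change was -0.041 for Cks2 and 0.038 for Ect2. Number 1 occurs in chloride alone, so the block gives the same change as leaving out chloride replicate 1.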
